A study of Mus musculus with 32 samples.

Results

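The genes that write, remove and read methyl marks on CpG dinucleotides were followed through 8 sorted bone marrow fractions of young and aged mice. The 8 genes were taken by symbol from the deposited gene counts, whatever their values: the DNA methyltransferases Dnmt1, Dnmt3a and Dnmt3b, the 5-methylcytosine dioxygenases Tet1, Tet2 and Tet3, the thymine DNA glycosylase Tdg, and the methyl-CpG reader Mbd2. They are 8 of 24421 genes in the table, and all 8 were among the 14154 genes that passed the filter on low counts. RNA-seq was performed on 32 libraries, 2 for each of 16 groups. The young mice were 10 weeks old and the aged mice 20 months old, and all were female C57BL/6 animals with no transgene or treatment. Haematopoietic stem cells (HSCs) lay in the Lin- gate positive for c-kit and Sca-1, with CD150 and without CD34, CD48 or Flt3. The multipotent progenitors (MPPs) carried CD34, and were parted by CD150, CD48 and Flt3 into MPP1 (CD150+ CD48- Flt3-), MPP2 (CD150+ CD48+ Flt3-), MPP3 (CD150- CD48+ Flt3-) and MPP4 (CD150- CD48+ Flt3+). Granulocyte-macrophage progenitors (GMPs) lacked Sca-1 and carried c-kit, CD34 and FcgR, megakaryocyte-erythroid progenitors (MEPs) carried c-kit alone of these, and common lymphoid progenitors (CLPs) were IL-7 receptor positive with low Sca-1 and c-kit. Marrow of several mice was pooled before the duplicate sorts, so p-values may measure only the spread between sorts and libraries, and fewer cells of a kind cannot be told apart from less RNA per cell.

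Methylation of cytosine at CpG sites is copied onto the new strand after replication by Dnmt1, which is brought to hemimethylated DNA by Uhrf1, and is set down on unmethylated DNA by Dnmt3a and Dnmt3b. Tet1, Tet2 and Tet3 oxidise 5-methylcytosine in a reaction that needs 2-oxoglutarate, Tdg cuts out the most oxidised forms so that base excision repair can put an unmodified cytosine back, and Mbd2 binds methylated CpGs and brings the NuRD chromatin remodelling and deacetylase complex. Dnmt3a and Tet2 are known as genes often mutated in clonal haematopoiesis of ageing, and loss of either in mouse HSCs favours self-renewal over differentiation.

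Levels are given as CPM, counts scaled to the size of the library with TMM factors, with library totals of 11237384 to 17723245 counts. A gene is called changed where the adjusted p (edgeR quasi-likelihood F-test, Benjamini-Hochberg over all tested genes) was under 0.01, a log2 difference is aged minus young unless stated, and the error after ± is the standard error of that fit. Some sort antigens followed the gates. Il7r was at 158 and 195 CPM in young and aged CLPs and at 13.4 CPM or less in every other group mean. Fcgr3 was at 481 and 493 CPM in GMPs and at 23.3 or less elsewhere, and Slamf1, which encodes CD150, was highest in HSCs. Others moved with age within a gate. Ly6a, which encodes Sca-1, went from 35.2 to 214 CPM in CLPs, beside 209 CPM in aged MPP4. In MEPs 6 of the 9 antigens were called lower with age and none higher, where 11.7% of all tested genes were called lower. Genes of other cell types moved with age in several fractions. The summed level of 10 erythroid genes went from 785 to 857 CPM in young GMPs to 37.4 to 88.2 in aged GMPs, with Epor at 0 there, and that of 10 B lineage genes from 239 to 251 CPM in young MEPs to 0.43 to 1.22 in aged MEPs, with 8 of the 10 at 0. In CLPs, 7 basophil and mast cell genes went from 1789 to 1838 CPM in young to 11.4 to 13.1 in aged libraries. Called lower there were also all 9 neutrophil, 7 of 10 macrophage and 7 of 10 B lineage genes, while 1 macrophage gene was called higher. In the same fraction 6 of 7 megakaryocyte genes rose, the sum of the 7 going from 38.4 to 40 CPM to 130 to 215. In HSCs 9 neutrophil genes went from 274 to 298 CPM to 636 to 819. In HSCs 4 of 7 basophil and mast cell genes rose as well, from 0.978 to 2.51 CPM summed to 11.7 to 19, with 4 of them at 0 in the young libraries. The MPPs differed too. In MPP2 and MPP3, 5 and 6 of the 10 erythroid genes, 3 and 5 of 7 megakaryocyte genes, 5 and 5 of the neutrophil genes and 5 and 7 of 10 macrophage genes fell, the summed erythroid level going from 993 to 1044 CPM to 252 to 267 in MPP2 and from 1079 to 1111 to 210 to 232 in MPP3. In MPP4 6 macrophage, 3 megakaryocyte and 3 basophil genes fell, and in MPP1 3 macrophage genes. Called higher in MPP4 were 2 neutrophil genes, 1 B lineage gene and 1 T and NK gene. In MPP1 they were 1 neutrophil, 1 basophil, 1 B lineage and 1 T and NK gene. MPP2 and MPP3 each had 1 basophil and 1 B lineage gene called higher. The summed level of the B lineage genes in MPP4 went from 735 to 797 CPM to 1090 to 1132. The part of any of these in the age differences below was not tested.

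Compared per kilobase of exon, which is the scale on which genes can be set beside each other, Dnmt1 was the most abundant of the 8 transcripts in 13 of the 16 groups, and Mbd2 in young HSCs and in young and aged MEPs. The median over the 16 groups was 74.8 CPM per kb for Dnmt1, 27.3 for Mbd2, 16.1 for Dnmt3b, 9.58 for Tdg, 5.74 for Dnmt3a, 2.67 for Tet3, 1.95 for Tet1 and 0.785 for Tet2. The order of the medians was the same with the longest transcript as the length. Tdg stands here on its own counts. With those of its near copy Gm9855 added, as taken up below, its median was 30.5 CPM per kb of Tdg, between the medians of Dnmt1 and Mbd2. Group by group, the sum lay above Mbd2 in 5 of the 16 groups. The counts of the copy are divided there by the exon length of Tdg. Of the 64 age comparisons of these genes, 10 were called higher in aged cells and 7 lower, where 7.01% and 5.57% of all tested gene by fraction values were called higher and lower. Dnmt1 made up 6 of the 10 and Dnmt3a 4 of the 7. With 2 libraries a group, both aged libraries lay above both young ones for 25.4% to 32.3% of all tested genes, depending on the fraction, and below them for 20.2% to 36.4%, so a lack of overlap is common here. Differences between fractions were more frequent than differences with age, for the 8 genes together as for all tested genes. Of the 28 pairs of fractions at each age, 15 young and 15 aged pairs were called for Dnmt1, 17 and 20 for Dnmt3a, 19 and 22 for Dnmt3b, 15 and 14 for Tet1, 7 and 12 for Tet2, 15 and 16 for Tet3, 3 and 0 for Tdg, and 8 and 7 for Mbd2, where 42.4% of all gene by pair values were called among young and 40.8% among aged fractions.

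**Figure D1:**
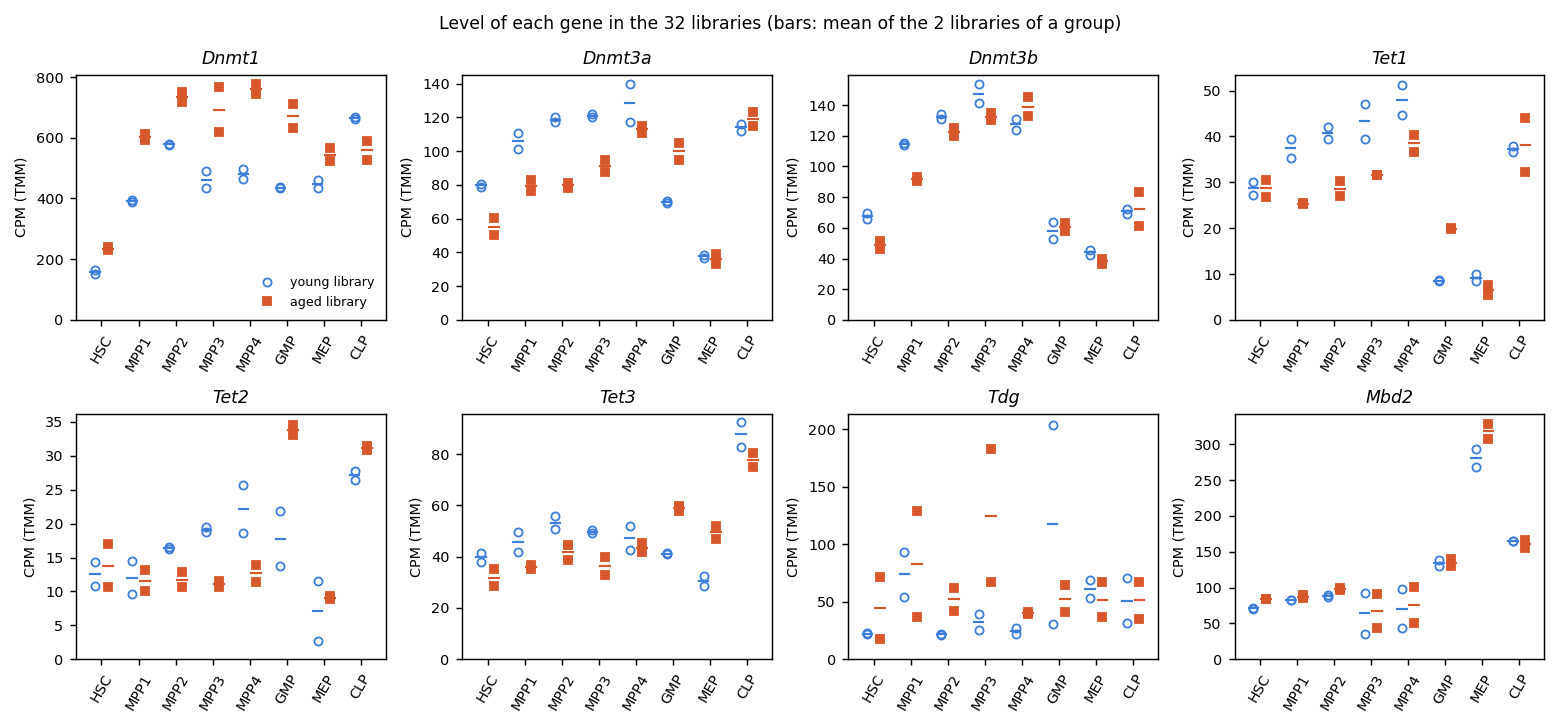
Level of each of the 8 genes (y axis, CPM scaled by TMM, from 0) in the 8 fractions (x axis), with open circles for young libraries, filled squares for aged libraries and a bar at the mean of each pair. Dnmt1 is lowest in HSCs at 157 CPM in young and 234 in aged cells, Mbd2 is highest in MEPs, and the duplicates of Tdg lie far apart in several groups.

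Dnmt1 (chr9:20907209-20959888 of GRCm38/mm10, minus strand) rose with age in HSCs, in all 4 MPP fractions and in GMPs. In HSCs it was at 163 and 151 CPM in the young libraries and at 239 and 229 in the aged ones, a difference of 0.58 ± 0.09 (adjusted p = 1.10e-04). Fitted on the 4 HSC libraries alone it was 0.54 and missed the threshold (adjusted p = 0.0318), and without replicate 2 of young HSCs it was 0.48 (adjusted p = 0.014). In MPP4 the values were 496 and 465 against 743 and 777 CPM (0.66 ± 0.08, adjusted p = 6.80e-06). The aged libraries lay above the young ones in 7 of 8 fractions. In MPP1 (387 and 396 against 594 and 614 CPM) the difference was 0.63 ± 0.08, in MPP3 (434 and 491 against 620 and 766) it was 0.58 ± 0.08, and in MPP2 (576 and 581 against 718 and 751) it was 0.34 ± 0.08, the last with an adjusted p of 0.00768. The MPP2 call was the least firm of the 6, with an adjusted p of 0.0104 under DESeq2 size factors and 0.0184 with no filter on low counts. The share of all tested genes called higher was 3.74% in HSCs, 4.71%, 4.49%, 8.14% and 10.3% in MPP1 to MPP4.

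Outside the stem and multipotent cells the age difference of Dnmt1 was not uniform. In GMPs the young libraries held 438 and 434 CPM and the aged ones 711 and 632 (0.62 ± 0.08, adjusted p = 1.33e-05, where 9.93% of genes were called higher and 8.97% lower). That value was 0.28 (adjusted p = 0.0225) after a correction for GC content and length. In MEPs the values were 460 and 436 against 522 and 567 CPM (adjusted p = 0.014), and in CLPs 670 and 662 against 527 and 590 (-0.25 ± 0.08, adjusted p = 0.0412), neither of them called. After the same correction the MEP difference was -0.03 (adjusted p = 0.891). In CLPs 5.71% of genes were called higher and 4.73% lower. CLPs were the only fraction in which both aged libraries lay below both young ones. The age difference of Dnmt1 varied over the 8 fractions (F-test of the interaction, adjusted p = 2.30e-05, called for 34.9% of genes), and in CLPs it was lower than the mean of the MPP fractions by 0.81 ± 0.09 on the log2 scale (adjusted p = 1.33e-06, where 22.6% of genes were called).

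Within each age, HSCs held the least Dnmt1. Young HSCs were 2.49-fold below young MPP1, the nearest fraction in level (adjusted p = 1.45e-10), and aged HSCs were 2.33-fold below aged MEPs (adjusted p = 2.25e-11). From MPP1 up to CLPs, no fraction differed from its neighbour in the order of the young levels (MPP1, GMP, MEP, MPP3, MPP4, MPP2, CLP), and the same held for the aged order (MEP, CLP, MPP1, GMP, MPP3, MPP2, MPP4). The level in CLPs was the highest of the young means, at 666 CPM, and below 5 of the other 7 aged means, at 559 CPM.

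Because Dnmt1 is a replication enzyme, its values are set beside 20 S phase genes, among them the Mcm2 to Mcm7 helicase subunits, the sliding clamp Pcna, the licensing factors Cdc6 and Cdt1, and the nucleotide synthesis genes Rrm1, Rrm2 and Tyms. Over the 10 HSC and MPP groups, the group mean of Dnmt1 and the mean level of the S phase genes had a Pearson r of 1.00 after rounding, and over all 16 groups of 0.75, given as a description over groups that share their libraries. All 20 S phase genes were called higher with age in MPP1 and in MPP4, 19 in MPP3, 9 in HSCs and 6 in MPP2, with medians of 0.24 to 0.59 where the median of all tested genes lay between -0.04 and 0.02. Dnmt1 stood 0.03 to 0.20 above the S phase median in these 5 fractions. In GMPs the pattern parted. There 12 of the 20 S phase genes were called lower and 1 higher, with a median of -0.28, and Dnmt1 was at 0.62, above each of the 20 (highest 0.43). After a correction for GC content and length Dnmt1 was at 0.28 in GMPs and no longer called (adjusted p = 0.0225), and still above each of the 20 (median -0.32, highest 0.09, 13 called lower). In MEPs 7 of the 20 were called lower and 1 higher, with a median of -0.08 beside 0.28 for Dnmt1. After the same correction 15 were called lower in MEPs, with a median of -0.29 beside -0.03 for Dnmt1. In CLPs 12 of 20 fell and none rose, with a median of -0.35 beside -0.25 for Dnmt1.

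**Figure D2:**
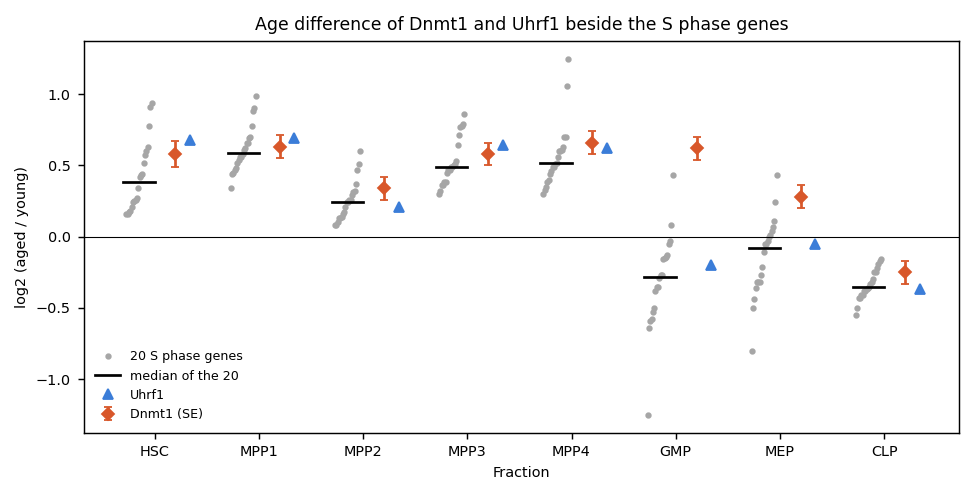
Age difference (y axis, log2 aged over young) by fraction (x axis) of 20 S phase genes (grey points, with their median as a black line), of Dnmt1 (orange diamonds with the standard error of the fit) and of Uhrf1 (blue triangles). Dnmt1 lies within the range of the S phase genes in HSCs, the MPPs, MEPs and CLPs, and above all of them in GMPs, where Uhrf1 is at -0.20; the values plotted carry no correction for GC content and length, which took Dnmt1 in GMPs to 0.28.

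Promoter windows of RefSeq (GRCm38.p6, 250 bases before to 50 after a start) were taken for 7 of the 8 genes, and Mbd2 was not searched. The windows were searched on both strands for 2 spellings of the E2F site that S phase promoters often carry, TTTCGCGC and TTTGGCGC. One of these was present in 0.81% of all 32851 windows and in 26.3% of the 19 windows of S phase genes. Both spellings hold CpGs, and the sets are unlike in this. The median number of CpGs was 7 in all windows, 22 in those of S phase genes and 26 in those of the methylation genes. Among the 11 windows of the 7 methylation genes searched, the only one with a match was the downstream Dnmt1 start, with a match on each strand. Stretches of 30 bases around the matches are shown, read along the minus strand of chromosome 9 in the direction of the gene, with the matched letters in capitals (the first match is the reverse complement of TTTCGCGC). Both stretches overlap annotated 5′ untranslated sequence of Dnmt1 transcripts.
Dnmt1, chr9:20952824-20952853: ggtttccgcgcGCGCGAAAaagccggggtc
Dnmt1, chr9:20952574-20952603: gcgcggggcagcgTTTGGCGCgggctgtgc
A match of letters is a description and not a measured binding site.

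Of 9 partners of maintenance methylation, those called rose in HSCs and MPPs and fell in GMPs, MEPs and CLPs. Uhrf1 rose in HSCs (84 to 134 CPM as means, 0.68 ± 0.06, adjusted p = 2.87e-07), MPP1, MPP3 and MPP4, and fell in CLPs (-0.37 ± 0.06, adjusted p = 2.21e-04). The chromatin remodeller Hells and its partner Cdca7 rose in MPP1, MPP3 and MPP4, with Hells at 0.55 to 0.71. In GMPs, where Dnmt1 was higher, Hells fell by 0.76 and Cdca7 fell by 0.52 on the log2 scale (adjusted p = 1.34e-04 and 6.83e-07), and Uhrf1 was at -0.20 (adjusted p = 0.0184, not called). The values of these partners carry no correction for GC content and length. The shares of all tested genes called, by fraction, were 3.74% to 10.3% higher and 1.66% to 11.7% lower, so 1 call in a list of this size is near that background. Counted over the list, 1 gene rose in HSCs, 3 in MPP1, none in MPP2, 3 in MPP3 and 4 in MPP4, and 3 fell in GMPs, 1 in MEPs and 3 in CLPs.

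Dnmt3a (chr12:3806007-3914443, plus strand) fell with age in HSCs, MPP1, MPP2 and MPP3 and rose in GMPs. In HSCs the young libraries were at 80.7 and 79 CPM and the aged ones at 50 and 60.1 (-0.53 ± 0.10, adjusted p = 7.90e-04), and the call was lost when these 4 libraries were fitted alone (-0.57, adjusted p = 0.0535) or replicate 1 of aged HSCs was left out (-0.45, adjusted p = 0.0103). In MPP2 the values were 120 and 117 against 78.1 and 81.3 CPM (-0.57 ± 0.09, adjusted p = 3.34e-04), or -0.52 (adjusted p = 0.0111) without replicate 1 of aged MPP2. No aged library reached a young one in these fractions. In MPP1 (111 and 101 against 76.2 and 83) the difference was -0.42 ± 0.09 and in MPP3 (122 and 120 against 95 and 87.6) it was -0.41 ± 0.09, with adjusted p of 0.00474 and 0.0031. The calls in MPP1 and MPP3 were lost after a correction for GC content and length (-0.31 and -0.25, adjusted p = 0.0224 and 0.0449). Of all tested genes, 1.66% were called lower in HSCs, 2.09% in MPP1, 3.31% in MPP2 and 5.79% in MPP3. In MPP4 the 140 and 117 CPM of young and 111 and 115 CPM of aged libraries did not overlap, and the test did not call them (adjusted p = 0.153), where 6.27% of genes were called lower.

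In GMPs, Dnmt3a went the other way, from 69.2 and 70.6 to 105 and 94.8 CPM (0.51 ± 0.10, adjusted p = 3.58e-04). The call was lost after a correction for GC content and length (0.05, adjusted p = 0.798). It was also lost when the 4 GMP libraries were fitted alone (0.51, adjusted p = 0.0106). In CLPs (116 and 112 against 115 and 123 CPM) and MEPs (38.4 and 36.8 against 39.3 and 33) the age groups overlapped, although the same correction moved the MEP difference from -0.06 to -0.39 and past the threshold (adjusted p = 0.00454). The age difference varied over fractions (adjusted p = 1.16e-05) and exceeded the MPP mean by 0.91 ± 0.11 in GMPs and 0.46 ± 0.11 in CLPs (adjusted p = 1.12e-06 and 0.00186, where 26.6% of genes were called in the former). After the same correction these values were 0.31 and 0.28 (adjusted p = 0.02 and 0.0344). Within an age, Dnmt3a was lowest in MEPs, which lay 1.86-fold below young GMPs (adjusted p = 5.79e-08), and among young cells the MPPs and CLPs held the most. Among aged cells GMPs came next after CLPs and MPP4, and were above MPP1 and MPP2 (adjusted p = 0.00537 and 0.00618). The young order MPP4, MPP3, MPP2, CLP, MPP1 had no neighbours that differed. Dnmt3a shares 133 exon bases with the antisense gene Dnmt3aos, and no use of strand is stated, so reads there cannot be told apart.

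Dnmt3b (chr2:153649450-153687730, plus strand), the other de novo enzyme, had 1 called age difference, a fall in HSCs. It was at 69.5 and 65.6 CPM in young and 46.1 and 51.5 CPM in aged HSCs (-0.47 ± 0.11, adjusted p = 0.00771). The call was lost after a correction for GC content and length (-0.41, adjusted p = 0.0118) and when the 4 HSC libraries were fitted alone (adjusted p = 0.0785). After that correction Dnmt3b was called lower in MEPs instead (-0.49, adjusted p = 0.00203), and on the 4 MPP1 libraries alone in MPP1 (-0.31, adjusted p = 0.0023). Aged libraries were below young ones in MPP1 (115 and 114 against 90.6 and 93.3 CPM, adjusted p = 0.0549), MPP2, MPP3 and MEPs as well, and above them in MPP4 (131 and 124 against 133 and 145 CPM). Whether the age difference varied over fractions was not shown (adjusted p = 0.0305), and HSCs were not shown to differ from the MPP mean (-0.35 ± 0.12, not called, as for the other 7 genes in that contrast, in which 3.01% of genes were called). Dnmt3b was highest in the MPPs, at 115 to 147 CPM in young and 92 to 139 CPM in aged means, and MPP1, the lowest of these, was above CLPs at both ages. Dnmt3b was lowest in MEPs, at 44.2 and 38.2 CPM.

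**Figure D3:**
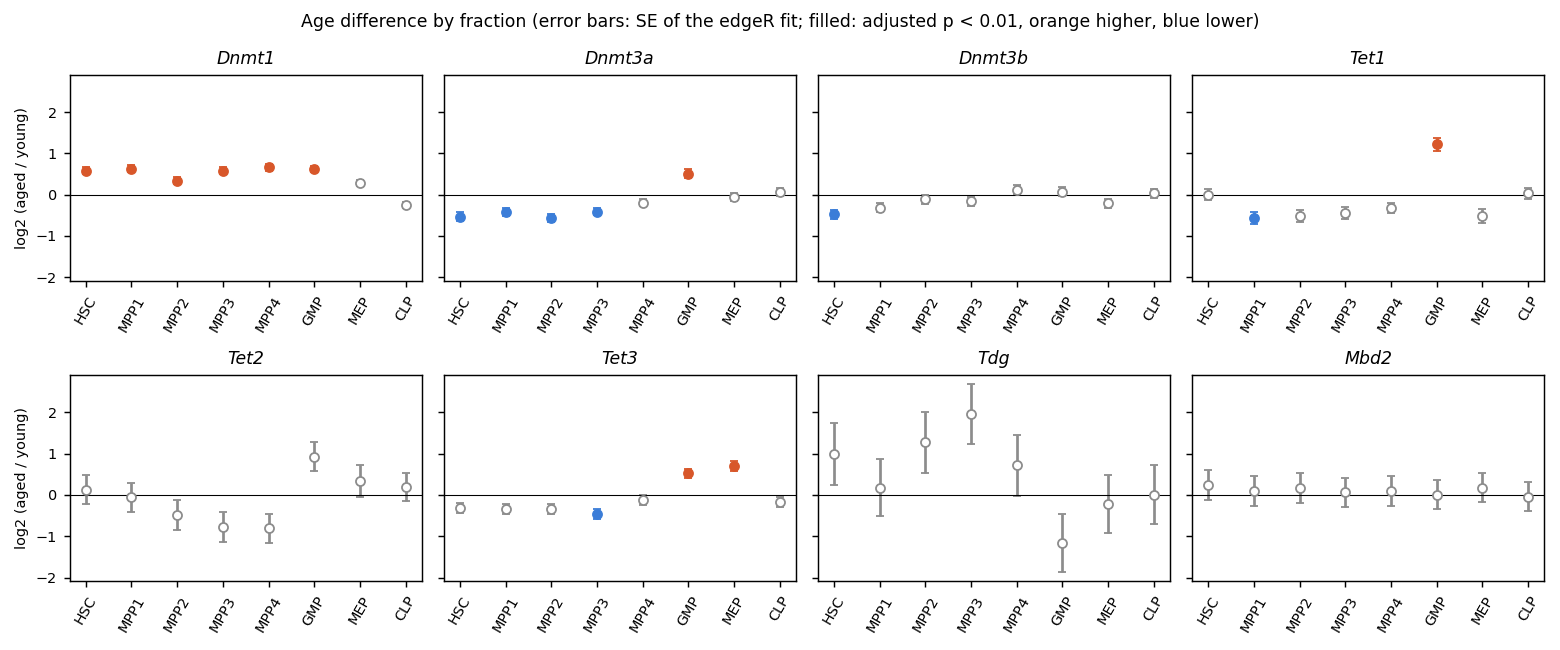
Age difference of each gene (y axis, log2 aged over young, the same scale in all panels) in the 8 fractions (x axis), with the standard error of the fit as bars and filled points where the adjusted p was under 0.01 (orange higher, blue lower in aged cells). Dnmt1 is above 0 in 7 fractions, Dnmt3a is below 0 in HSCs and the MPPs and above it in GMPs, and the wide bars of Tdg and Mbd2 follow the distance between their duplicates. The values plotted carry no correction for GC content and length, which took Dnmt1 in MEPs to -0.03 and Dnmt3a in GMPs to 0.05.

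Tet1 (chr10:62804570-62908996, minus strand) showed the largest called age difference among the 8 genes, in GMPs. It was at 8.62 and 8.43 CPM in young and at 20 and 19.8 CPM in aged GMPs (1.22 ± 0.16, adjusted p = 6.54e-06). The call held under every alternative that kept the GMP libraries and in each fit that left out a library, at 0.89 to 1.23. In the MPPs the aged libraries were all lower: 39.5 and 35.3 against 25.3 and 25.4 CPM in MPP1 (-0.56 ± 0.14, adjusted p = 0.00874), 39.4 and 42 against 26.9 and 30.3 in MPP2 (adjusted p = 0.0146), 39.4 and 47.1 against 31.6 and 31.5 in MPP3 (adjusted p = 0.0189), and 51.2 and 44.6 against 36.7 and 40.3 in MPP4 (adjusted p = 0.0924). Only MPP1 passed the threshold, and 24 of the 32 fits without a library lost that call. Averaged over the 4 MPP fractions, Tet1 fell by 0.46 on the log2 scale (adjusted p = 9.91e-06, where 18.9% of genes were called higher and 17.7% lower). In HSCs the ages overlapped (30.1 and 27.2 against 30.6 and 26.7 CPM).

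The age difference of Tet1 varied over fractions (adjusted p = 9.60e-06), and in GMPs it exceeded the MPP mean by 1.68 ± 0.17 (adjusted p = 1.74e-07). Tet1 was low in the 2 myeloid progenitor fractions. Young GMPs (8.53 CPM) and young MEPs (9.2 CPM) did not differ from each other, and young GMPs lay 3.35-fold below young HSCs (adjusted p = 1.02e-09). Among aged fractions, MEPs at 6.5 CPM were 3.07-fold below GMPs at 19.9 CPM (adjusted p = 1.95e-08). From HSCs to MPP4, at 28.6 to 47.9 CPM, no neighbours in the young order differed.

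Tet2 (chr3:133463679-133545139, minus strand) had the lowest counts of the 8 genes, 38 to 416 per library, and no age difference was called in any fraction. In GMPs both aged libraries (34.6 and 33 CPM) lay above both young ones (13.7 and 21.8), with a difference of 0.93 ± 0.34 (adjusted p = 0.0469). In MPP2, MPP3 and MPP4 both aged libraries lay below the young ones, at 11.5 and 10.6 against 19.5 and 18.7 CPM in MPP3 (-0.78 ± 0.36, adjusted p = 0.121) and at 13.9 and 11.4 against 25.7 and 18.6 in MPP4 (-0.81 ± 0.35, adjusted p = 0.0998). The difference between the GMP and the mean MPP age difference was called, at 1.46 ± 0.39 (adjusted p = 0.00508), and was 1.09 (adjusted p = 0.0215) after a correction for GC content and length. The young MEP duplicates were at 11.5 and 2.73 CPM, the widest ratio between duplicates for this gene at 4.23. Without the first of these the MEP age difference was 1.70 (adjusted p = 0.00238) in place of 0.33, and leaving out one or the other of them gave a GMP difference of 0.93 or 0.94 with an adjusted p of 0.00432 or 0.00422. Among aged fractions, GMPs (33.8 CPM) and CLPs (31.1 CPM) did not differ from each other, and CLPs were above HSCs, the next in the order.

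Tet3 (chr6:83362373-83459084, minus strand) rose in aged MEPs and GMPs and fell in aged MPP3. In MEPs it was at 28.7 and 32.4 CPM in young and 52.1 and 46.9 CPM in aged libraries (0.70 ± 0.12, adjusted p = 1.90e-04, where 9.08% of genes were called higher and 11.7% lower). In GMPs it was at 40.9 and 41.3 against 59.9 and 57.8 CPM (0.52 ± 0.12, adjusted p = 0.00278). The young and aged libraries did not overlap in either fraction. After a correction for GC content and length the MEP difference was 0.31 (adjusted p = 0.0163), and the GMP difference turned to -0.03 (adjusted p = 0.944). In MPP3 the values were 50.3 and 49.3 against 39.8 and 32.8 CPM (-0.46 ± 0.12, adjusted p = 0.00939), a call that 23 of the 32 fits without a library lost. In HSCs, MPP1, MPP2 and CLPs both aged libraries were below the young ones and the test did not call them. The age difference varied over fractions (adjusted p = 3.69e-05) and exceeded the MPP mean by 1.01 ± 0.14 in MEPs (adjusted p = 7.99e-06, where 24.8% of genes were called) and by 0.83 ± 0.14 in GMPs, values that were 0.48 (adjusted p = 0.00117) and 0.14 (adjusted p = 0.321) after the correction. CLPs held the most Tet3 at both ages, at 87.7 and 77.7 CPM, and differed from the next fraction, by 1.65-fold from MPP2 among young (adjusted p = 3.05e-05) and by 1.32-fold from GMPs among aged cells (adjusted p = 0.00705).

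In GMPs, then, 4 of the 8 genes were called higher with age and none lower, with a median over the 8 of 0.52 where that of all tested genes was 0.00 and 9.93% of them were called higher and 8.97% lower. Of these 4, Tet1 stayed called after a correction for GC content and length. The young GMP duplicates differed more than those of most groups (root mean square of the log2 difference 0.755, against 0.447 to 0.617 outside young GMPs and young MEPs).

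Tdg (chr10:82629828-82650799, plus strand) could not be measured apart from a copy of itself. Its messenger RNA has several processed pseudogenes. One of them, Gm9855 (chr10:42054113-42055306, minus strand), is counted as a gene of its own and matches the Tdg transcript at 99.2% of 1194 aligned positions, which take in the whole of the 1191 coding bases. Of all 60-base windows of that alignment, the length of the reads, 72.8% were identical in both. The longest Tdg transcript has 3502 bases, so this share holds for the aligned part only and not for all reads of Tdg. The 90 coding bases with the most differences are shown, with the differing letters in capitals. The Tdg stretch runs over the last intron, from exon 9 into exon 10 of 10, and is read on the plus strand; that of Gm9855 is read on the minus strand (GRCm38/mm10 transcripts of GENCODE M21).
Tdg, chr10:82648039-82648627: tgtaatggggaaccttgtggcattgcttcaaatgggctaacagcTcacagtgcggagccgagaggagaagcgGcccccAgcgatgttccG
Gm9855, chr10:42054206-42054295: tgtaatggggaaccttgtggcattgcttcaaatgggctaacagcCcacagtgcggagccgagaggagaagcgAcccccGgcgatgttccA

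The deposited counts of Tdg and Gm9855 traded places between duplicates. In 4 libraries, replicate 2 of young GMPs, replicate 1 of aged HSCs, replicate 2 of aged MPP1 and replicate 1 of aged MPP3, Gm9855 was at 0 and Tdg at 919 to 2951 counts. In the other 28 libraries, 13.6% to 85.3% of the summed counts (median 24.2%) were given to Tdg. Young GMPs show the exchange most plainly: Tdg was at 30.6 and 204 CPM in the 2 libraries, Gm9855 at 157 and 0, and their sum at 187 and 204. The ratio between duplicates reached 6.67 for Tdg and 1.21 for the sum. Tdg alone had no called age difference (adjusted p of 0.0541 to 1) and was the one gene of the 8 not called among young or among aged fractions (adjusted p = 0.0174 and 0.282, where 86.9% and 85.5% of genes were called).

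**Figure D4:**
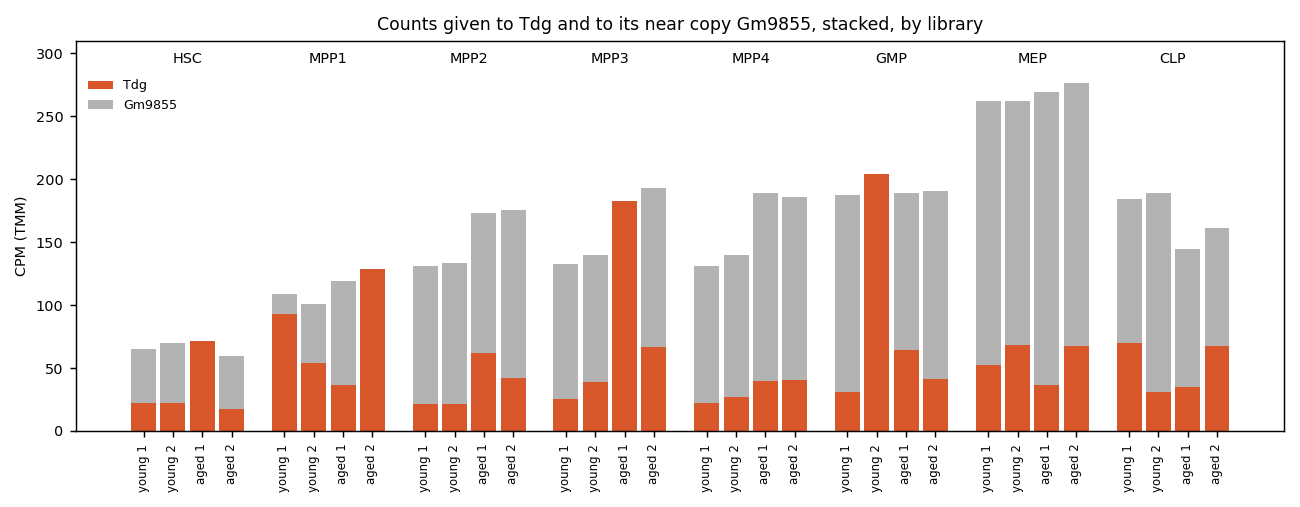
Level given to Tdg (orange) and to its near copy Gm9855 (grey), stacked (y axis, CPM scaled by TMM, from 0), in each library (x axis, by age and replicate within the 8 fractions). The full height of the bars differs little between duplicates, while the orange part ranges from 17.6 to 204 CPM and takes the whole bar in 4 libraries.

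With the counts of both genes summed, a choice made after their values were seen, the Tdg messenger and its copy rose with age in 3 MPP fractions. The sum was at 131 and 134 against 173 and 176 CPM in MPP2 (0.40 ± 0.08, adjusted p = 0.00144), at 133 and 140 against 183 and 193 in MPP3 (0.46 ± 0.08, adjusted p = 1.80e-04) and at 131 and 140 against 189 and 186 in MPP4 (0.47 ± 0.08, adjusted p = 1.11e-04). In MPP1 (109 and 101 against 119 and 129 CPM) the adjusted p was 0.0418, and in CLPs both aged libraries were lower (184 and 190 against 145 and 161, adjusted p = 0.0111). HSCs (64.8 and 70.1 against 71.8 and 59.4 CPM) and GMPs overlapped. The sum was lowest in HSCs and highest in MEPs at both ages (67.4 and 262 CPM in young, 65.6 and 273 CPM in aged means), and HSCs differed from MPP1, the next in the order. Other near copies, Gm5597 (99.3% over 1193 bases) and Tdg-ps (98.7% over 2968 bases), were not analysed here, so the sum does not cover every copy. The sum cannot say whether the gene or the copy was transcribed, and 367 exon bases of Tdg are also shared with Glt8d2 on the other strand.

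Mbd2 (chromosome 18, plus strand), the reader, differed among fractions at both ages (adjusted p = 2.51e-05 in young and 2.47e-05 in aged cells) and had no called age difference. MEPs held the most, at 269 and 293 CPM in young and 308 and 328 CPM in aged libraries, and young HSCs, at 70.1 and 72.2 CPM, lay 3.95-fold below young MEPs (adjusted p = 4.22e-05). CLPs (165 and 165, then 166 and 155 CPM) and GMPs (139 and 130, then 130 and 140 CPM) came next at both ages. No neighbours in either order differed by the test. The age differences were -0.04 to 0.24, and the interaction test gave an adjusted p of 1. In HSCs both aged libraries (83.5 and 84.7 CPM) were above both young ones, with a difference of 0.24 ± 0.36.

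The wide error of Mbd2 went with 4 libraries. In MPP3 the young duplicates were at 92.7 and 35 CPM and the aged ones at 90.7 and 42.9, and in MPP4 they were at 98 and 43.3 and at 101 and 50.6. In each of these 4 groups the library numbered 2 was the low one, and in the other 12 groups the duplicates were close. Of 8043 genes that averaged 20 CPM or more, 28 were at under 0.6 of the first library in the second library of all 4 groups and none was above the inverse of that ratio. For 16 of the 28 the second library was above 0.8 of the first in every other group. Besides Mbd2 these were Egln1, Ranbp9, Znrf2, Fam120a, Heca, Cnnm3, Chsy1, Brd1, Git1, Papd7, Zfp777, Osbp, Hipk2, Zfp704 and Mta1, which encodes another NuRD subunit, genes that were listed after their values were seen. Without the MPP3 and MPP4 libraries, also a choice made after seeing the values, the HSC difference of Mbd2 stayed at 0.24 with an adjusted p of 0.0374.

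The remaining genes of the pathway were read from lists, whose counts are to be set against the shares of all tested genes given by fraction above (in MPP4 10.3% higher and 6.27% lower, in MEPs 9.08% and 11.7%). All values of these lists carry no correction for GC content and length. After that correction only Tet1, of the 4 methylation genes called higher in GMPs, stayed called. Among 7 other readers of methylated CpG, none was called in HSCs, MPP1, MPP2, MPP3 or CLPs, 1 fell in MPP4, 3 rose and 1 fell in GMPs, and 2 rose in MEPs. Zbtb33, which encodes the reader Kaiso, fell in GMPs from 3.57 to 1.47 CPM as means (-1.27 ± 0.33, adjusted p = 0.00572). Among 10 subunits of NuRD, the histone-binding Rbbp7 rose in the 4 MPP fractions (0.30 to 0.44) and fell in GMPs (-0.23 ± 0.06, adjusted p = 0.00379). The helicase Chd4 fell in MPP3 (-0.48 ± 0.13) and rose in GMPs (0.58 ± 0.13), and Chd3 rose in GMPs from 7.4 to 15.1 CPM (1.03 ± 0.19).

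Of the 14 tested genes of base excision repair and deamination, in which Tdg's product is handed on, 2 rose in HSCs, 2 in MPP1, 2 in MPP3, 3 in MPP4, 4 in GMPs and 3 in MEPs, and 1 fell in MPP2, 2 in MPP4, 1 in MEPs and 2 in CLPs, several of them no more than those shares give for 14 genes. Gadd45g, a stress gene proposed to recruit repair to methylated sites, rose in HSCs from 8.88 to 34.6 CPM (1.96 ± 0.20, adjusted p = 8.04e-07), in MPP1 (0.97 ± 0.21), in GMPs from 1.27 to 6.07 CPM (2.26 ± 0.25) and in MEPs (1.36 ± 0.21), and fell in CLPs from 6.81 to 2.79 CPM (-1.28 ± 0.23, adjusted p = 3.63e-04). The repair scaffold Xrcc1 rose in MPP3, MPP4, GMPs and MEPs, by 0.26 to 0.58. The glycosylase Neil3 rose in HSCs from 3.32 to 6.83 CPM (1.03 ± 0.24, adjusted p = 0.00798).

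Among 11 genes that supply the methyl donor or 2-oxoglutarate, members moved in opposite directions. Mat2a, which makes S-adenosylmethionine, fell in HSCs (385 to 293 CPM as means, -0.39 ± 0.06, adjusted p = 8.19e-05), MPP1, GMPs (-0.64 ± 0.06), MEPs and CLPs. Ahcy, which removes the spent donor S-adenosylhomocysteine, rose in the 4 MPP fractions by 0.46 to 0.67. Idh1, a cytosolic source of 2-oxoglutarate, fell in the same 4 fractions, at -0.70 to -0.51, while the mitochondrial Idh3a rose there by 0.40 to 0.58 and fell in GMPs (-0.44 ± 0.06). D2hgdh, which clears 2-hydroxyglutarate, an inhibitor of the Tet enzymes, fell in MPP4 (-0.33 ± 0.08) and rose in GMPs, MEPs and CLPs by 0.36 to 0.44. The folate carrier Slc19a1 rose in MPP3, MPP4 and MEPs with a largest value of 0.71.

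Of the 9 tested partners and regulators of the Dnmt3 and Tet enzymes, none was called in HSCs, MPP1 or MPP2. Ogt, whose protein binds the Tet enzymes, fell in GMPs from 166 to 90.6 CPM (-0.87 ± 0.10, adjusted p = 2.49e-06) and in MEPs (-0.61 ± 0.10) and rose in CLPs (0.39 ± 0.10). Cxxc5 fell in MEPs from 18.2 to 5.3 CPM (-1.79 ± 0.16, adjusted p = 3.90e-08) and in MPP3, and rose in GMPs (0.60 ± 0.13). Over the 60 tested genes of these 6 lists together, 13 rose and 8 fell in GMPs, where 9.93% and 8.97% of all tested genes were called higher and lower, and 3 rose and 1 fell in HSCs, close to the 3.74% and 1.66% of all tested genes.

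Across the 16 group means of log2 CPM, Dnmt3a was closest to Tet1 among the 8 genes (Pearson r = 0.85), Tet2 to Tet3 (r = 0.78), and Mbd2 ran against Dnmt3b (r = -0.79), each over groups that share age and fraction. Among 10676 other tested genes that averaged 5 CPM or more, the patterns most like that of Dnmt1 were those of Ncapd2, Cenpm and Hirip3 (r = 0.96 each). Kdm3b, Arhgap30 and Git2 were nearest to Dnmt3a (r = 0.95 to 0.96), Pdxp and Ankrd10 to Dnmt3b (r = 0.93 to 0.95), and Rfx3, Kif21b and Plcg1 to Tet1 (r = 0.97 each). For Tet2 they were Hmha1, Lrch4 and Lrp1 (r = 0.93 to 0.96), for Tet3 Fkbp15, Sipa1 and Arhgef1 (r = 0.89 to 0.92), and for Mbd2 Usp7 and Rexo2 (r = 0.95 to 0.96). For Tdg, whose counts traded places with those of its copy, no gene came above the 0.68 of Rbbp5, and Tmco1 and 2310009B15Rik followed.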

How the data were processed

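RNA-seq was performed with low-input cDNA libraries and single 60-base reads. Per the labels and the study's methods, the authors aligned reads to mm10 with TopHat2 2.0.13 and Bowtie2 2.1.0 and derived the deposited raw counts per gene with StringTie. No use of strand or of molecular identifiers is stated. Deposited counts normalized by DESeq2 and 8 deposited tables of the authors' own age comparisons (fold changes and p-values) were not used.

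Counts as deposited were tested with edgeR 4.0.16 (quasi-likelihood F-test, TMM, filterByExpr, 1 fit of 16 group means to 32 libraries, 16 residual degrees of freedom), with Benjamini-Hochberg adjustment within each contrast over 14154 genes and a threshold of 0.01. Beside each age contrast, those of HSCs, GMPs, MEPs and CLPs minus the MPP mean, the interaction over fractions and the differences among fractions were tested. Duplicates differed by more than counting noise (mean chi-square per gene of 4.59 to 19), so none was the same library read again. This cannot tell libraries made from the same sort from libraries of separate sorts. Over all genes, replicate numbers did not pair young with aged libraries (correlations of -0.06 to 0.07), although 28 genes, Mbd2 among them, were low in replicate 2 of MPP3 and MPP4 at both ages. Positions and lengths came from GENCODE M21 (24028 of 24421 symbols matched), and near copies from minimap2 2.31-r1302 and Biopython 1.88. The fit was tested on simulated data. Alternatives covered normalization, DESeq2 1.42.0, the filter, the replicate block, GC content and length offsets, depth, threshold, the libraries in the fit and the length used. The 8 genes and all lists were chosen with earlier results of these data known. The pathway genes named were those called in at least 4 of 8 age contrasts and, per list, the 2 with the largest called difference, and for each of the 8 genes the 3 most alike in pattern. S phase genes are given as counts, although most of them met that rule. Some genes that met this rule are not reported here.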

Additional observations from a re-analysis of the deposited data

Results flagged for a closer look

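Several age differences were not the same in all fractions by a test of the difference itself. The interaction of age with the 8 fractions was called for Tet1 (adjusted p = 9.60e-06), Dnmt3a (1.16e-05), Dnmt1 (2.30e-05), Tet3 (3.69e-05) and the sum of Tdg and Gm9855 (2.83e-05), by edgeR's quasi-likelihood F-test. It was called for 34.9% of all tested genes. Against the mean age difference of the 4 MPP fractions, 26.6% of all tested genes were called for GMPs, 24.8% for MEPs, 22.6% for CLPs and 3.01% for HSCs. In this contrast GMPs were higher by 1.68 on the log2 scale for Tet1, 1.46 for Tet2, 0.91 for Dnmt3a and 0.83 for Tet3. After a correction for GC content and length these values were 1.16, 1.09, 0.31 and 0.14, and of them only that of Tet1 stayed called. For Dnmt1 the values were 0.07 in GMPs and -0.27 in MEPs, neither of them called. After that correction those of Dnmt1 were -0.34 and -0.65, both called (adjusted p = 0.00986 and 2.28e-05). MEPs were higher by 1.01 for Tet3, or 0.48 after a correction for GC content and length. CLPs were higher by 0.46 for Dnmt3a, or 0.28 and no longer called after that correction, and stood at -0.81 for Dnmt1, or -0.94 after it. For the sum of Tdg and Gm9855, HSCs and GMPs stood at -0.43 each, MEPs at -0.34 and CLPs at -0.68. The GMP, MEP and CLP values stand beside age differences in erythroid, B lineage and basophil genes of those fractions, whose part was not tested. No group had enough samples for a check of single outlying libraries.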

How the results depend on the processing

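The 10 calls higher and 7 calls lower with age became 6 and 4 after a correction for GC content and length (of the 7 lower, 2 were kept, 5 lost, and Dnmt3a and Dnmt3b in MEPs gained; of the 10 higher, 6 were kept), and 6 and 4 when it was joined with the replicate block. The calls lower were 11 at an adjusted p under 0.05 and 3 without the MPP3 and MPP4 libraries, and the calls higher were 5 without the GMP and MEP libraries; in both of these fewer fractions remain. Leaving out each library in turn gave 8 to 12 higher and 3 to 7 lower. The calls of Dnmt1 in MPP1, MPP3, MPP4 and GMPs, Tet1 in GMPs and Tet3 in MEPs held in all 32 of these fits; Dnmt1 in MPP2 held in 23, Dnmt3a in MPP1 in 26, in MPP3 in 28 and in GMPs in 31 (0.44 without replicate 1 of aged GMPs), Dnmt3b in HSCs in 24, Tet1 in MPP1 in 8, Tet3 in MPP3 in 9 and Tet3 in GMPs in 28. Fitted on the 4 libraries of a fraction alone, 9 calls were lost and 5 gained. With that correction, alone or with the block, the age difference of Tet3 in GMPs turned to -0.03. The members called against the MPP mean were 2 for GMPs (Dnmt1 and Tet1), 2 for MEPs (Dnmt1 and Tet3) and 1 for CLPs (Dnmt1). These numbers stand in place of 4, 1 and 2. With the correction alone, the age difference of Dnmt1 was below the MPP mean in GMPs, MEPs and CLPs. The cause was not tested. For MEPs the number was 3 at 0.05, 2 by the DESeq2 test and 2 with Tdg summed with Gm9855, which also gave 1 for HSCs in place of 0. The replicate block alone gave 10 higher and 5 lower, the calls lost being Tet1 in MPP1 and Tet3 in MPP3; over all genes, replicate numbers are shared by name only. Counts of members that varied with age over fractions, or among young or aged fractions, stayed within 1.5 times under all alternatives run for them. The alternatives without the GMP and MEP or the MPP3 and MPP4 libraries, and the sum with Gm9855, were chosen after seeing the data. The lengths of longest transcripts raised all 8 levels per kb.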
